A study of Sus scrofa with 8 samples.

Results

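The genes of hepatic retinoid storage and metabolism were followed in the liver of pigs before and after a steatotic diet. The set holds 9 genes, RBP4, RETSAT, RDH16, RDH10, DHRS3, ALDH1A1, CYP26A1, BCO1 and BCO2, picked by symbol from the 18103 genes and new transcripts of the deposited expression table. All 9 were found, and all 9 were among the 13175 genes that passed the filter on low values. LRAT, the esterifying enzyme, was not a member and is given with the other genes of the pathway.

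RNA was extracted from the livers of male Landrace x Large White pigs and sequenced in 8 libraries, 4 for each state, with 2 pigs pooled in every library. The initial state was healthy liver at 4 months of age, taken by biopsy. Steatosis was the liver of the same animals at 6 months of age, taken after euthanasia, when they had consumed for 2 months a diet high in saturated fat, fructose, cholesterol and cholate, deficient in methionine and low in choline. All pigs were of the same cross and sex. There was no group of the same age on the ordinary diet, so diet, age and the way of sampling cannot be told apart. Within a state the pools are separate samples of 2 animals, and the p-values measure the spread between pools, not between single pigs. Both states hold the same animals, and the main fit left out any pairing of the pools by number.

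Vitamin A reaches the liver as retinyl esters carried by chylomicron remnants. Hepatocytes hydrolyse the esters and either release retinol into plasma on retinol binding protein or pass it to stellate cells, which store it again as ester in their lipid droplets. Retinol is oxidised reversibly to retinaldehyde and from there irreversibly to retinoic acid, the ligand of the nuclear retinoic acid receptors, which cytochromes of the CYP26 family break down. Carotenoids of the diet are cleaved to retinaldehyde by one oxygenase and to other products by another.

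Expression was measured in FPKM (fragments per kilobase of transcript, scaled to the mapped fragments of the library), a level per length, so that genes can also be set against each other. The libraries had similar depth, between 92.0% and 100% of the deepest one as read from the steps of low values. Hepatocyte transcripts dominated every library. The summed FPKM of 6 markers, TF with 2 entries, was between 55170 and 87340 in the initial pools and between 47760 and 59040 in steatosis. Most of this sum was ALB, so it follows that gene. Both TF entries rose and FGB fell at an adjusted p under 0.05 (limma), against 26.7% of all genes higher and 2.28% lower. Initial pool 1 stood apart. It held transcripts of skeletal muscle, with a summed FPKM of 2830 for 6 markers against at most 0.35 in any steatosis pool. Of stomach mucosa it held 1516 against at most 6.28. It also held 27.92 FPKM of ADIPOQ, the adipocyte hormone adiponectin. The other initial pools had summed levels of 0.86 to 21.88 for muscle and 5.52 to 28.44 for stomach. Leaving out pool 1 therefore does not remove all such transcripts from the initial state. For the named retinoid genes, where leaving out initial pool 1 moved a call, the value without it is also given. Where only the size of a fold changed, it is given for some genes and not for others.

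Among the 9 genes 2 passed an adjusted p of 0.05, both higher in steatosis, near the 26.7% of all genes that were higher. Both encode enzymes that use retinaldehyde. ALDH1A1, which oxidises retinaldehyde to retinoic acid, was 2.45 times higher in steatosis. DHRS3, which reduces retinaldehyde back to retinol, was 1.92 times higher. RBP4, RETSAT, RDH16, RDH10, BCO1 and BCO2 did not pass, with ratios of the means from 0.901 to 1.23. CYP26A1, which degrades retinoic acid, was low in both states and passed only when the pools were paired by number.

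At the limits used for the series (limma with Benjamini-Hochberg adjustment, a log2 fold change beyond 1 at an adjusted p under 0.01), 1 of the 9 genes, ALDH1A1, was higher in steatosis, against 6.01% of all genes tested. None was lower, against 0.334% of all genes. With an adjusted p under 0.05 and no limit on size, 2 genes were higher, ALDH1A1 and DHRS3, against 26.7% of all genes, and 0 were lower, against 2.28%. With the pools paired by number 3 were higher, CYP26A1 being the other, against 25.7% of all genes. With 9 genes these counts are near the background. At an unadjusted p under 0.05, limma still gave 2 higher and 0 lower. When the libraries were scaled to the same upper quartile, 1 gene, RBP4, was lower at an adjusted p under 0.05, against 7.79% of all genes. The pools of both states did not overlap for 2 of the 9 genes, against 32.1% of all genes.

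Most genes of these livers lay higher in steatosis on the deposited scale. The median log2 fold change over all genes tested was 0.25, with 10373 of 13175 above 0, and it was -0.01 after scaling to the median ratio and 0.03 after scaling to the upper quartile. That scaling also moved the calls. On the deposited scale 3519 genes were higher and 300 lower at an adjusted p under 0.05, and after scaling to the median ratio 1529 were higher and 1283 lower. The median of the 9 genes was 0.18, with 6 above 0. Relative to the median of all genes, 4 lay above it, ALDH1A1, DHRS3, CYP26A1 and BCO2, and 5 lay below.

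**Figure D1:**
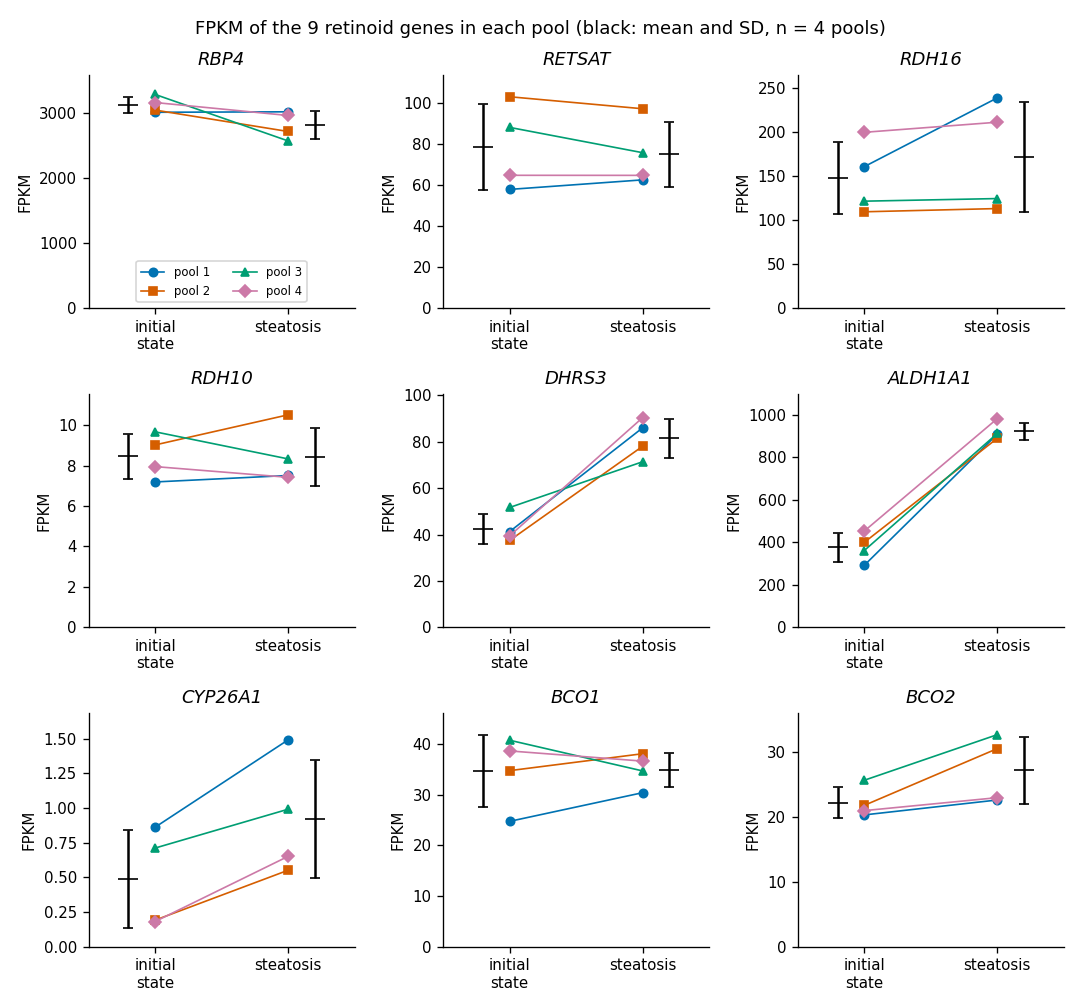
FPKM of each of the 9 genes (linear axes from 0) in the 4 initial pools and the 4 steatosis pools, with a line joining the pools of the same number and the mean and SD of each state in black. The states are separate for ALDH1A1 (292 to 453 against 890 to 982 FPKM) and DHRS3 (37.5 to 51.7 against 71.4 to 90.4 FPKM) and overlap for the other 7.

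RBP4 carries retinol from the liver to other tissues and was by far the most expressed of the set, 23rd of all genes by mean FPKM. Its gene lies on chromosome 14 (chr14:105037360-105044552, Sscrofa11.1). The initial pools 1 to 4 had 3017, 3051, 3292 and 3167 FPKM and the steatosis pools 3024, 2721, 2575 and 2967. Pool 1 did not move, the other pools were lower in steatosis, and the states overlapped only through pool 1. The means ± SD over 4 pools were 3132 ± 125 and 2822 ± 210 FPKM. On the log2 scale steatosis differed by -0.15 ± 0.10 (SE), with a 95% interval from -0.38 to 0.07 and an adjusted p of 0.279 (limma). The sign was the same under each scaling. Relative to the median of all genes the difference was -0.40, and after scaling to the upper quartile it was -0.39 with an adjusted p of 0.0497. After scaling to the median ratio it was -0.42 with an adjusted p of 0.054. So whether RBP4 passes depends on the scale. TTR (transthyretin), which holds RBP4 in plasma, was at 7071 ± 777 FPKM in the initial state and 6922 ± 952 in steatosis. The ratio of RBP4 to TTR within a library, which no scaling moves, was 0.446 ± 0.034 and 0.413 ± 0.0595, and the states overlapped.

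RETSAT saturates a double bond of retinol and gives dihydroretinol. The gene lies at chr3:59401161-59416829. Its level was 57.8, 103, 87.9 and 64.6 FPKM before the diet and 62.4, 97.0, 75.6 and 64.6 in steatosis. The order of the pools was the same in both states, with pool 2 highest, then pools 3 and 4, and pool 1 lowest, and the states overlapped throughout. The log2 fold change was -0.05 ± 0.20 (95% interval -0.50 to 0.40, adjusted p = 0.875), and its sign turned when single libraries were left out.

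RDH16 is a hepatic dehydrogenase of the endoplasmic reticulum that oxidises retinol and hydroxysteroids. It lies at chr5:22251751-22266801 and was the third most expressed of the set in both states. The initial pools had 160, 109, 121 and 199 FPKM and the steatosis pools 238, 113, 124 and 211. Pools 1 and 4 were high and pools 2 and 3 low in both states. That is the reverse of RETSAT, and the ratio of RETSAT to RDH16 within a library ran from 0.324 in pool 4 to 0.941 in pool 2 in the initial state and from 0.262 in pool 1 to 0.859 in pool 2 in steatosis. All 4 pools of RDH16 were higher in steatosis, pool 1 by 1.49 times and the other 3 by 1.02 to 1.06 times. The log2 fold change of 0.18 ± 0.27 (95% interval -0.42 to 0.79, adjusted p = 0.636) became -0.05 after scaling to the upper quartile and -0.09 after scaling to the median ratio.

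The value of RDH16 carries a limit of its own. The gene stands in an array of related dehydrogenases on chromosome 5, of which 6 named genes span 204 kb, and LOC100512656 and LOC100626199 beside it are both described as retinol dehydrogenase 16. Reads could be shared among such copies. These copies were looked up by description after values had been seen. LOC100512656 was at 19.8 ± 6.51 and 26.7 ± 11.2 FPKM (adjusted p = 0.481) and LOC100626199 at 28.5 ± 12.2 and 26.1 ± 4.62 FPKM (adjusted p = 0.934). LOC100620470 and LOC106510305 of the same array were looked up in the same way. LOC100620470 was at 174 ± 43.3 and 232 ± 22.3 FPKM (adjusted p = 0.085). LOC106510305 rose by 0.887 ± 0.275 on the log2 scale (adjusted p = 0.0369), a call lost under both scalings and, at 0.0568, without initial pool 1.

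SDR9C7, a short-chain dehydrogenase of the same array that was also looked up after values had been seen, ends 128 bp before the start of RDH16. It had 11.0, 15.7, 13.2 and 10.4 FPKM before the diet and 25.1, 31.3, 33.1 and 27.7 in steatosis. Every steatosis pool was above every initial pool, and SDR9C7 rose by 1.23 ± 0.15 on the log2 scale (adjusted p = 0.000404). RDH16 next to it did not pass the test, and the ratio of SDR9C7 to RDH16 was 0.0684, 0.143, 0.108 and 0.0521 in the initial pools and 0.105, 0.277, 0.266 and 0.132 in steatosis. It was higher in steatosis in every pool of the same number, although the states overlapped. The difference between the neighbours was not tested.

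RDH10 makes retinaldehyde from retinol and is the enzyme best known for this step in the embryo. The gene lies at chr4:62569877-62600981, and its level in liver was low. The initial pools had 7.19, 9.02, 9.67 and 7.95 FPKM and the steatosis pools 7.51, 10.5, 8.33 and 7.42. The means were 8.46 ± 1.10 and 8.44 ± 1.44 FPKM, a log2 fold change of -0.01 ± 0.14 with a 95% interval from -0.33 to 0.31 (adjusted p = 0.972). Pools 1 and 2 were higher in steatosis and pools 3 and 4 lower, and the sign turned with the scaling to a common sum.

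DHRS3 acts in the opposite direction to RDH10, from retinaldehyde to retinol, and is known as a gene that retinoic acid induces. It lies at chr6:72556234-72599233. In the initial pools it was at 41.3, 37.5, 51.7 and 39.5 FPKM and in steatosis at 86.0, 78.1, 71.4 and 90.4. The lowest steatosis pool was above the highest initial pool. These are pool 3 in both states, and pool 3 changed least, by 1.38 times, against 2.08, 2.08 and 2.29 times for pools 1, 2 and 4. The means were 42.5 ± 6.33 and 81.5 ± 8.45 FPKM. DHRS3 rose by 0.94 ± 0.12 on the log2 scale (95% interval 0.67 to 1.22, adjusted p = 0.000586), which is 0.69 above the median of all genes. It was just under the limit of 1 on size, and it passed that limit without initial pool 3 or without steatosis pool 3, when it reached at most 1.04. Under the scaling to the median ratio it was 0.67 with an adjusted p of 0.0062.

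Since RDH10 and DHRS3 catalyse opposite directions of the same step, their ratio was read within each library. DHRS3 was 5.74, 4.15, 5.34 and 4.96 times as high as RDH10 in the initial pools and 11.5, 7.43, 8.57 and 12.2 times in steatosis, per length. The ratio was higher in every steatosis pool than in any initial pool. Against RDH16, the more expressed retinol dehydrogenase of the set, the states overlapped. The ratio of DHRS3 to RDH16 was 0.306 ± 0.0997 in the initial state and 0.514 ± 0.148 in steatosis. RDH11, another reductase of retinaldehyde in the endoplasmic reticulum, moved the other way and fell by 1.45 ± 0.22 on the log2 scale (adjusted p = 0.00136). It had 196, 191, 140 and 160.0 FPKM before the diet and 78.6, 82.4, 40.0 and 57.6 in steatosis. RDH11 was 4.16 ± 1.06 times as high as DHRS3 in the initial state and 0.791 ± 0.233 times in steatosis. Each of these genes already separated the states, in opposite directions. That the states did not overlap in their ratio follows from this and adds nothing to it.

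ALDH1A1 is a cytosolic retinaldehyde dehydrogenase that also oxidises other aldehydes. It lies at chr1:226163347-226217342 and stood second of the set in both states. The initial pools had 292, 399.7, 361 and 453 FPKM and the steatosis pools 909, 890, 912 and 982. The states lay far apart, and the steatosis pools were closer together than the initial ones, at 923 ± 40.6 against 376 ± 67.8 FPKM. All pools were higher in steatosis, by 3.12, 2.23, 2.53 and 2.17 times. ALDH1A1 rose by 1.31 ± 0.13 on the log2 scale (95% interval 1.02 to 1.60, adjusted p = 0.000156), or 1.06 above the median of all genes. Pool 1 changed most, since the initial pool 1 was the lowest, and without that library the log2 fold change was 1.20. After scaling to the median ratio it was 1.04 and still passed the limits. The ratio of ALDH1A1 to RBP4 within a library went from 0.12 ± 0.0208 to 0.328 ± 0.022.

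ALDH1A1 and DHRS3 use the same substrate. ALDH1A1 was 9.05 ± 2.36 times as high as DHRS3 in the initial state and 11.4 ± 0.981 times in steatosis, and here the states overlapped. Both genes rose, and a difference between their changes was not separated from the spread of the pools.

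**Figure D2:**
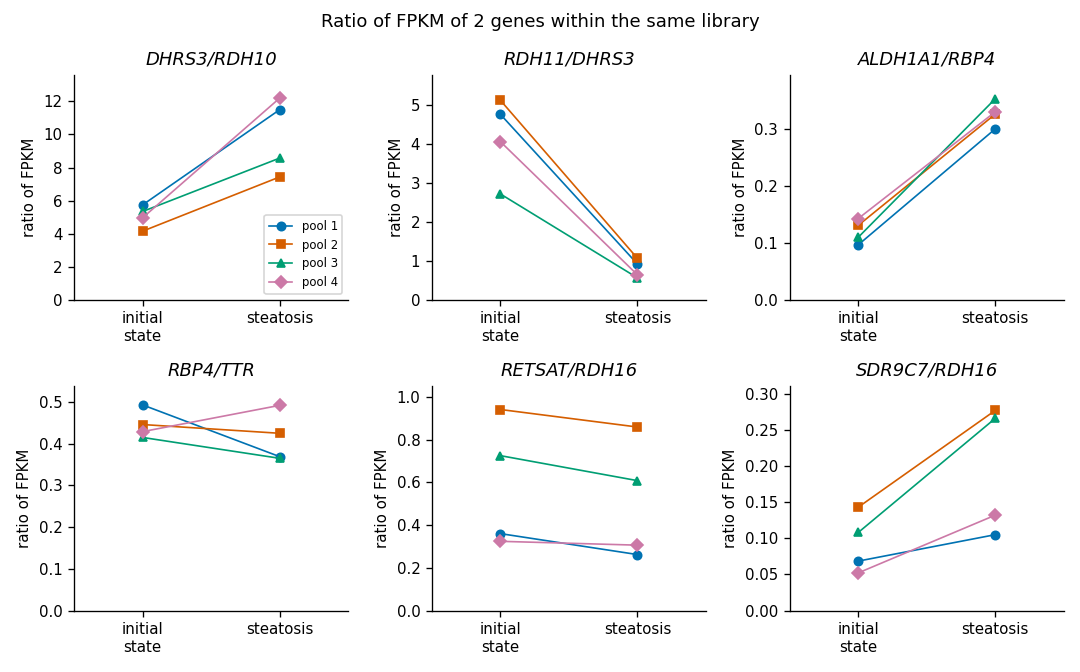
Ratio of the FPKM of 2 genes in the same library (linear axes from 0), for 6 pairs, in the initial and the steatosis pools, with a line joining pools of the same number. The ratio of DHRS3 to RDH10 is higher and that of RDH11 to DHRS3 lower in every steatosis pool than in any initial pool, whereas RBP4 to TTR, RETSAT to RDH16 and SDR9C7 to RDH16 overlap. For RDH11 to DHRS3 this follows from the separate levels of both genes.

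CYP26A1 hydroxylates retinoic acid for its removal and is known to respond to retinoic acid strongly. It lies at chr14:104561394-104567099, 470 kb from RBP4. Its level was the lowest of the set, 0.86, 0.19, 0.71 and 0.18 FPKM before the diet and 1.49, 0.55, 0.99 and 0.65 in steatosis. In fragments, as estimated from the gene length and the steps of low values, these were about 26, 6, 22 and 6 against 46, 18, 31 and 21. All 4 pools of the same number were higher in steatosis, by 1.73, 2.89, 1.39 and 3.61 times, but pools 1 and 3 were high in both states and the states overlapped. The log2 fold change was 0.94 ± 0.46 (95% interval -0.09 to 1.97, adjusted p = 0.152). When the pools were paired by number (a replicate block), the value was the same, the SE was 0.233 and the adjusted p was 0.0233, so the call depends on whether the pools are paired. With a pseudocount of 1 in place of 0.1, the log2 fold change was 0.38. Without initial pool 1 it was 1.25 with an adjusted p of 0.0623 (limma).

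BCO1 cleaves beta-carotene in the middle to give retinaldehyde and is best known from the intestine. It lies at chr6:7008330-7054089. The initial pools had 24.7, 34.7, 40.7 and 38.6 FPKM and the steatosis pools 30.4, 38.1, 34.7 and 36.6. Pool 1 was lowest in both states. The log2 fold change was 0.03 ± 0.16 (95% interval -0.32 to 0.38, adjusted p = 0.898), turning to -0.20 after scaling to the upper quartile, to -0.24 after scaling to the median ratio and to -0.12 without initial pool 1. Of the 5 intestinal markers, FABP2 never reached 0.3 FPKM, VIL1 (villin) rose from 1.15 ± 0.21 to 8.39 ± 1.94 FPKM (adjusted p = 2.13e-05) and APOA4 fell by 1.82 on the log2 scale (adjusted p = 0.00291). The other 2 were low, CDX2 at 0.125 ± 0.114 and 0.22 ± 0.0812 FPKM and LCT at 0.33 ± 0.221 and 0.29 ± 0.153 FPKM. The summed level of the 5 was 1466 to 2556 FPKM in the initial state and 320.1 to 1028 in steatosis. Nearly all of it was APOA4, so the sum follows that gene and is no measure of intestinal cells. The part of such cells in the level of BCO1 was not tested.

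BCO2, the mitochondrial oxygenase that cleaves carotenoids off centre, lies at chr9:39864136-39916491. It had 20.3, 21.8, 25.6 and 20.9 FPKM before the diet and 22.6, 30.5, 32.7 and 22.9 in steatosis. The order of the pools was the same in both states (3, 2, 4, 1), and all were higher in steatosis, by 1.10 to 1.40 times. The log2 fold change was 0.28 ± 0.14 (95% interval -0.04 to 0.60, adjusted p = 0.164). This is 0.03 above the median of all genes, and after scaling to the median ratio the value was 0.01. BCO1 was 1.56 ± 0.258 times as high as BCO2 in the initial state and 1.31 ± 0.222 times in steatosis, with overlap.

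By level per length, the order in the initial state was RBP4, ALDH1A1, RDH16, RETSAT, DHRS3, BCO1, BCO2, RDH10 and CYP26A1. DHRS3 overlapped BCO1 there, and BCO1 overlapped BCO2. In steatosis DHRS3 had moved ahead of RETSAT by its mean, at 81.5 against 74.9 FPKM, with overlapping pools, and was clear of BCO1. The other neighbours kept their places, and BCO1 and BCO2 again overlapped.

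Of the other genes of the pathway, 48 were listed, 41 were found by symbol and 34 passed the filter. At the limits of the series 4 were higher and 1 lower, against 6.01% and 0.334% of all genes tested. At an adjusted p under 0.05, 12 were higher and 1 lower, against 26.7% and 2.28%. With the replicate block 14 were higher, against 25.7% of all genes. Their median log2 fold change was 0.35, with 28 above 0, beside 0.25 and 10373 of 13175 for all genes. Under the scaling to the median ratio, 6 of them were higher at an adjusted p under 0.05, against 11.6% of all genes.

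Among the binding proteins, RBP5, a cellular retinol carrier of the liver, had 37.9, 58.8, 38.1 and 66.3 FPKM before the diet and 124, 79.1, 115 and 89.6 in steatosis. Its log2 fold change was 1.04 ± 0.21 with an adjusted p of 0.00628, of 0.0501 after scaling to the median ratio and of 0.0172 with the replicate block. Without initial pool 1 it was 0.917 with an adjusted p of 0.0138, outside the limits of the series. STRA6, the plasma membrane receptor of RBP4, never reached 0.3 FPKM. LOC102168060, described as a STRA6-like receptor protein and looked up after values had been seen, rose from 3.23 ± 0.924 to 6.70 ± 1.26 FPKM (adjusted p = 0.00538). Its log2 fold change was 1.06, and 0.945 without initial pool 1 (adjusted p = 0.0121).

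For the making and breaking of esters, 3 of 8 genes rose and none fell, near the 26.7% of all genes that were higher. LRAT had 1.47, 2.16, 1.97 and 1.31 FPKM before the diet and 4.21, 4.45, 4.33 and 3.69 in steatosis, a log2 fold change of 1.25 ± 0.17 (adjusted p = 0.000773). CES1, a carboxylesterase, rose by 0.50 (adjusted p = 0.0439), a call lost under both scalings and, at 0.0517, without initial pool 1. LPL, the lipase of chylomicrons, was at 0.11, 0.27 and 0.05 FPKM in initial pools 2 to 4 and at 6.59 in pool 1, the library with muscle and adipose transcripts. Its log2 fold change was 4.00 ± 1.01 (adjusted p = 0.016). Without that library it was 5.22 (adjusted p = 3.73e-05, limma). LPL then passed the filter on low values only through the steatosis pools, so this call is no further support. The size also rests on the pseudocount, with 2.36 over all 8 libraries for a pseudocount of 1.

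LRAT is also known from stellate cells. Of 10 stellate cell markers, LRAT included, 5 rose (RELN, LHX2, HGF and PDGFRB besides LRAT), 1 fell (LUM) and the other 4, among them DES and COL1A1, did not pass, against 26.7% of all genes higher and 2.28% lower. Their summed level was 44.9 to 206 FPKM in the initial state and 73.7 to 172 in steatosis. The 206 was initial pool 1, with 71.5 FPKM of DES against at most 7.39 in any other pool, and without it the initial sums were 44.9 to 111. In bulk RNA, more cells of a type and more RNA per cell cannot be told apart. Of 8 macrophage markers 5 rose, CD68, MARCO, CSF1R, C1QB and C1QC, against the same 26.7%. CD163, C1QA and CD14 did not pass, with CD14 at 203.5 ± 16.51 FPKM before and 178.5 ± 18.51 after. The sum of the 8 was 868 to 1114 FPKM before and 1257 to 1463 after, mostly from C1QA, C1QB, C1QC and CD14. The 868 was initial pool 1, and without it the initial sums were 954 to 1114. The part of either cell type in the changes of ALDH1A1, DHRS3 and LRAT was not tested.

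Of the 8 tested genes that convert retinol and retinaldehyde into each other, 3 rose and 1, RDH11, fell, against 26.7% and 2.28% of all genes. RDH14 rose by 0.68 (adjusted p = 0.00445), DHRS9 by 1.06 (adjusted p = 0.0329) and ADH1C, an abundant alcohol dehydrogenase of 1490 ± 185 FPKM, by 0.34 (adjusted p = 0.0438). The calls of DHRS9 and ADH1C were lost under both scalings. Without initial pool 1 they were lost too, at 0.799 (adjusted p = 0.0545) and 0.287 (adjusted p = 0.0961). The call of RDH14 was kept in each of these. DHRS4 was at 204 ± 50.0 and 338 ± 103 FPKM, with an adjusted p of 0.0584, and of 0.0232 with the replicate block.

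Besides ALDH1A1, 1 of 4 genes for the oxidation of retinaldehyde rose, near the 26.7% of all genes that were higher. ALDH1A3 went from 0.47, 0.40, 0.27 and 0.22 FPKM to 1.22, 1.10, 0.75 and 2.18 (log2 fold change 1.63 ± 0.31, adjusted p = 0.00466). Per length, it remained far below ALDH1A1 in every pool. The aldehyde dehydrogenase ALDH8A1 was at 33.1 ± 5.75 and 42.3 ± 5.17 FPKM (adjusted p = 0.0792, and 0.0461 without initial pool 1). The oxidase AOX1 was at 119 ± 24.4 and 131 ± 28.0 FPKM (adjusted p = 0.63).

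CYP26B1 and CYP26C1 were not found by symbol. LOC100521659, described as CYP26B1 and looked up after values had been seen, had 0.347 ± 0.104 and 0.545 ± 0.0686 FPKM (adjusted p = 0.0898), again at the edge of detection. For the uptake of carotenoids, CD36, a fatty acid and carotenoid transporter, rose by 2.87 ± 0.59 on the log2 scale (adjusted p = 0.00651), and by 3.58 ± 0.23 without initial pool 1 (adjusted p = 3.35e-05). SCARB1 was at 26.7 ± 5.48 and 30.7 ± 2.13 FPKM (adjusted p = 0.275). CD36 in initial pool 1 was at 6.43 FPKM against 0.69 to 0.89 in the others.

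Of the 4 receptors tested 1 rose, near the 26.7% of all genes that were higher. This was RXRA, by 0.37 ± 0.09 (adjusted p = 0.0137), a call lost under both scalings. RARA was at 5.56 ± 0.885 and 7.38 ± 0.919 FPKM (adjusted p = 0.0594). Of 3 response genes 1 rose, against the same 26.7% of all genes. It was RARRES1, by 1.01 ± 0.25 (adjusted p = 0.0156, a call lost under both scalings, and adjusted p = 0.00424 with the replicate block). RARRES2 (chemerin) and TGM2 had log2 fold changes of -0.02 ± 0.11 and 0.19 ± 0.21 and did not pass.

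**Figure D3:**
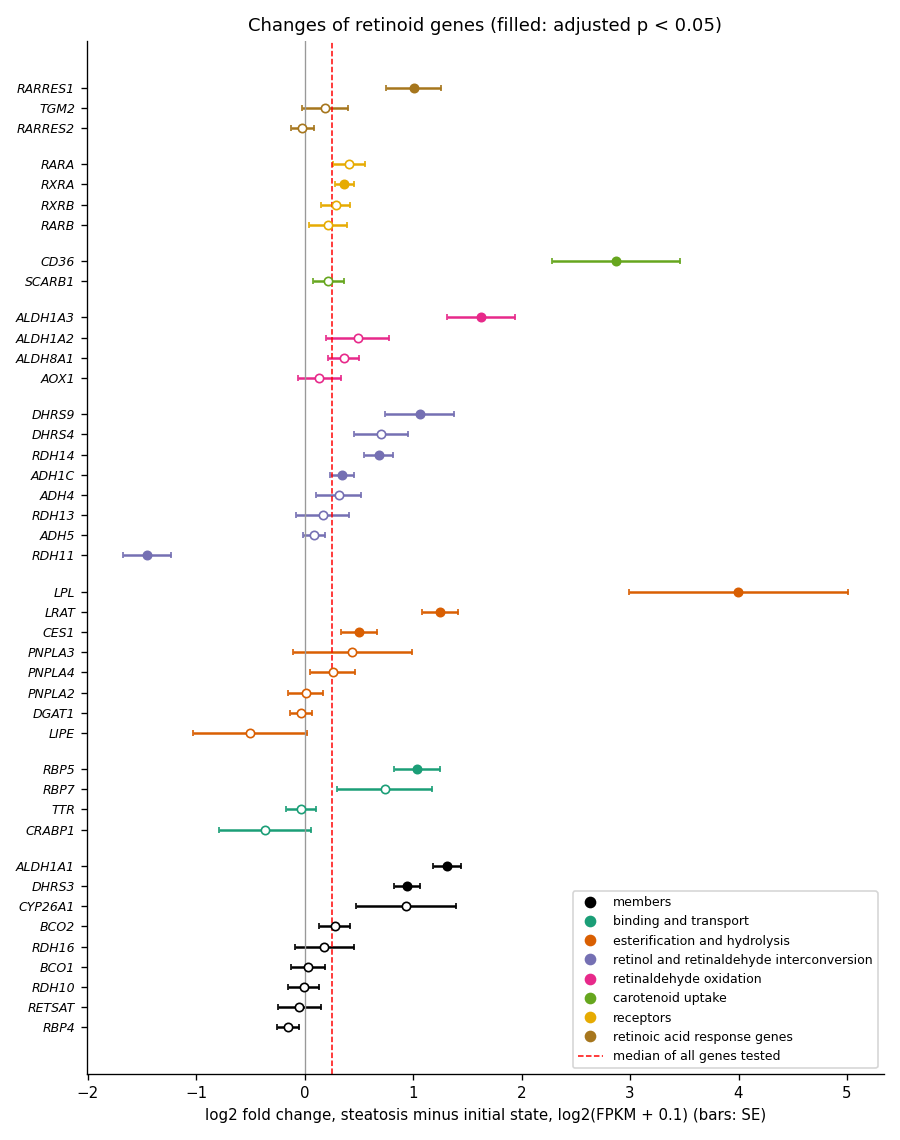
Log2 fold change (steatosis minus initial state, on log2(FPKM + 0.1), bars are SE) of the 9 genes in black and of tested genes of the pathway by list, with filled points where the adjusted p was under 0.05 and the median of all genes tested, 0.25, as a dashed line. ALDH1A1 (1.31) and DHRS3 (0.94) are the filled points of the 9, and RDH11 (-1.45) is the filled point below 0.

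The genes whose profile over the 8 libraries was nearest to that of ALDH1A1 were FCER1G, DPH6 and DNASE1L1, with root mean square differences of 0.0832, 0.0957 and 0.118 on the centred log2 scale. For DHRS3 they included VSIG10 (0.0813) and ORAI3 (0.0917). ORAI3 shared the extreme pool with DHRS3, with pool 3 the highest in the initial state and the lowest in steatosis. It was picked for its nearness over these same values, so this adds nothing to the pick. With 8 libraries in 2 states, these lists mainly hold genes with a difference of the same size.

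**Figure D4:**
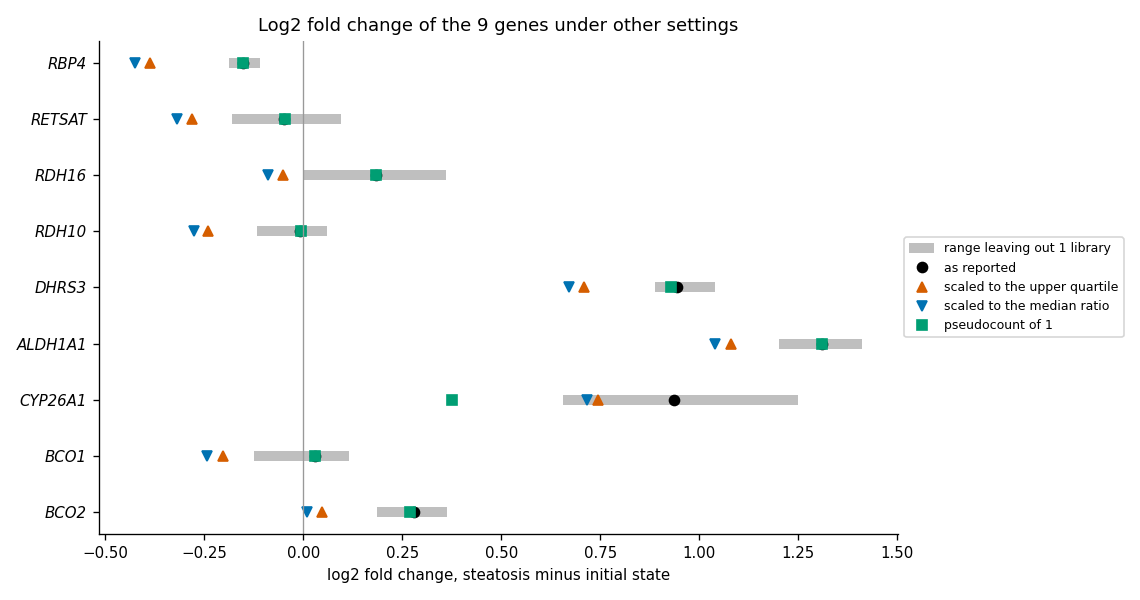
Log2 fold change of the 9 genes (steatosis minus initial state) as reported, with 2 scalings and another pseudocount, and the range when 1 library is left out as a grey bar. ALDH1A1 stays between 1.04 and 1.41 and DHRS3 between 0.67 and 1.04, while RDH16, RDH10, BCO1 and RETSAT lie on both sides of 0.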

How the data were processed

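Hepatic poly-A RNA was sequenced in paired reads of 100 bp (DNBseq). Per the submitters' processing notes, HISAT2 2.0.4, Bowtie2 2.2.5 and RSEM 1.2.12 were used. The authors deposited FPKM values of 18103 genes and new transcripts for all 8 libraries, with no further scaling stated. FPKM are not counts, so tests for counts were not applied. The values of 1 fragment, read from steps in genes of 400 to 600 bp, gave the relative depth. Total read numbers are not used here, and fragments are estimates. The authors' pairwise comparisons (fold changes, p-values) were not used, except for gene lengths. Positions came from RefSeq (Sscrofa11.1), where 17778 gene IDs matched.

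Genes with at least 0.3 FPKM in 4 or more libraries were compared with limma 3.58.1 (R 4.3.3) after adding 0.1 and taking log2. A trend of variance with level was fitted, and p-values were adjusted by Benjamini-Hochberg over all genes tested. Fold changes on this scale understate those of low genes. The script was tested on simulated data. Ratios of means were taken on FPKM. Python 3.11.15 was used for tables (pandas 2.3.3, numpy 2.4.6) and plots (matplotlib 3.10.9). The members and lists were chosen with earlier results of these data known. All members were named, and of the pathway lists genes that passed a call or the 3 most expressed per list. The 8 genes looked up by description after values had been seen are said to be so. Of these, 3 were higher at an adjusted p under 0.05, against 26.7% of all genes. LOC100513982, not named above, was at 61.01 ± 3.345 FPKM in the initial state and 55.19 ± 3.861 in steatosis (adjusted p = 0.224). One gene of the pathway lists is counted but not reported here. The alternatives were no filter, a filter at 1 FPKM, a pseudocount of 1, scaling to a common sum, upper quartile or median ratio, the replicate block and leaving out each library.

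Pool numbers come from the labels, and both groups are the same animals. Whether pools of the same number hold the same pigs is not given in the sources used here. Deviations from the group means over 13175 genes correlated at 0.163, 0.35, 0.317 and 0.247 for pools 1 to 4 of the same number and at most at 0.0276 otherwise, so the numbers were taken to pair the pools. The main fit left the pairing out, so its SEs, intervals and p-values also hold differences between pools that both states share. With the replicate block the SE of RDH16 was 0.116 against 0.27 and that of RETSAT 0.0942 against 0.201. For DHRS3 it was 0.133 against 0.121. No library repeated another.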

Additional observations from a re-analysis of the deposited data

Results flagged for a closer look

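In groups of 4, a pool was listed when its gap to the nearest pool, divided by the range of the group, was above Dixon's 95% limit. Among 60 groups of 30 genes this met 5, and chance gives about 1 in 20. None concerned the 9 genes. LPL (0.966) and CD36 (0.965) stood high in initial pool 1, the library with muscle, stomach and adipose transcripts, whose part in these values was not tested. CES1 stood low in initial pool 4 (0.862). In steatosis pool 3, DHRS9 (0.868) and LOC106510305, a dehydrogenase gene of the chromosome 5 array looked up by description after values had been seen (0.859), stood low.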

How the results depend on the processing

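ALDH1A1 and DHRS3 passed an adjusted p of 0.05 under all alternatives. ALDH1A1 ranged from 1.20 to 1.41 and DHRS3 from 0.89 to 1.04 when libraries were left out. At the limits of the series the count of higher members ranged from 1 to 2, being 2 without initial or steatosis replicate 3, where DHRS3 passed a log2 fold change of 1. Scaling to the upper quartile gave 1 lower member at an adjusted p under 0.05, RBP4 (-0.39), against 7.79% of all genes. It also turned RDH16 (-0.0511) and BCO1 (-0.20). Scaling to the median ratio turned them too (-0.0892 and -0.24). RDH10 turned with a common sum (0.00204). Leaving out libraries moved RDH10 from -0.117 to 0.0591, BCO1 from -0.12 to 0.12 and RETSAT from -0.18 to 0.10, all with adjusted p above 0.05.

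Of the pathway genes, the 4 higher at the limits of the series became 2 with no filter, 2 with a pseudocount of 1, 1 with the upper quartile and 0 with the median ratio (6 at an adjusted p under 0.05), and 1 to 4 without single libraries. The 1 was without initial replicate 3 or steatosis replicate 1. Of all genes, 4.23% were higher at these limits with no filter and 3.0% with a pseudocount of 1. With the upper quartile it was 3.35% and with the median ratio 3.11%. CES1, ADH1C and DHRS9 lost an adjusted p under 0.05 without 5, 7 and 5 of the 8 libraries in turn. The 12 higher at an adjusted p under 0.05 became 7 with the upper quartile and 6 with the median ratio, against 12.7% and 11.6% of all genes. Over all genes, 62.0% of calls were higher with the upper quartile and 54.4% with the median ratio, against 92.1%. Paired analysis (replicate block) left CYP26A1 at 0.94 and brought its adjusted p to 0.0233, and changed no other call of a member. Of the pathway genes, 14 were then higher at an adjusted p under 0.05, against 25.7% of all genes. DHRS4 (0.0232) and RBP7 (0.0464, named after its value was seen) were gained. RBP5 (0.0172) left the limits of the series and RARRES1 (0.00424) entered them. CYP26A1 did not enter the filter at 1 FPKM. Beyond the calls named, the cause of these shifts was not tested. CYP26A1 rested on about 6 to 46 fragments a library.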
